A study of Atriplex lentiformis with 9 samples.

Results

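The 45 entries described here are the enzymes that make, remove or buffer reactive oxygen in roots of quailbush (Atriplex lentiformis, a salt-tolerant shrub of arid land). They were picked from 5164 entries by a pattern of names that uses no measured value, though earlier results of these data were known when it was chosen. The names cover NADPH oxidases, superoxide dismutases, catalases, the ascorbate and glutathione recycling enzymes, glutathione peroxidase-like enzymes, glutaredoxins, thioredoxins with their reductases, and glutathione transferases. They comprise 3 NADPH oxidases, 1 superoxide dismutase, 2 ascorbate peroxidases, 2 monodehydroascorbate reductases, 2 dehydroascorbate reductases, 4 glutathione peroxidase-like enzymes, 8 glutaredoxins, 9 thioredoxins or thioredoxin reductases and 14 glutathione transferases. No listed entry carried a catalase or glutathione reductase name. The plants had grown for 11 weeks in mine tailings when root RNA was taken and sequenced. Compost made up 10% of the mix in the treatment TC10, 15% in TC15 and 20% in TC20. All 3 treatments contain tailings, so none is a metal-free control. Expression was compared in 8 libraries, each from 1 plant: TC10 plants 2 and 4, TC15 plants 2, 6 and 10, and TC20 plants 3, 5 and 9.

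Reactive oxygen is both a signal and a hazard in roots. NADPH oxidases of the plasma membrane make superoxide, and dismutases turn it into hydrogen peroxide. The peroxide is then removed by catalases and by peroxidases that draw electrons from ascorbate, glutathione or thioredoxin. Glutathione also binds arsenic and other metals, serves as the building block of phytochelatins, and is attached to reactive compounds by glutathione transferases. Glutaredoxins and thioredoxins reduce disulfides in proteins, and a plant-specific group of glutaredoxins, the CC type, binds TGA transcription factors in Arabidopsis. These roles are known mostly from Arabidopsis, after whose proteins the entries are named. An entry therefore stands for the quailbush transcripts matched to that protein, and close paralogs, such as the thioredoxin reductases TRXB1 and TRXB2 or the transferases GSTT1 to GSTT3, are uncertain.

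The libraries held between 3030394 and 4752637 recovered reads, and values are given as normalised reads, the authors' read counts divided by 1 size factor per library. The file of TC10 plant 5 was not used, because its header names TC15 plant 6 and all 4995 of its entries hold that library's values. Root zinc ranged from 174 to 1075 ug/g, arsenic from 36 to 216 ug/g and lead from 10 to 70 ug/g over the 8 plants. Among names listed as root markers from Arabidopsis, 7 were listed, with summed values of 1480.5 to 5782 per library. In every library PHO1 was the largest part of that sum, with 810 to 4692 normalised reads, so the sum mostly follows that name. Of the 7, MYB36, a regulator of the Casparian strip, had 381 to 852 normalised reads. COBL9, a root hair gene, was not listed in 5 libraries, and SCR, an endodermal regulator, had 2.80 to 15.4. Of the names taken as markers of green tissue, 1 was listed, the chlorophyll-binding protein CB4B, with 18.4 to 120 normalised reads. In whole roots, fewer cells of a type and less RNA per cell cannot be told apart. The labels name separate plants, so p-values measure the spread between plants. Reads per entry also depend on transcript length, so levels are not compared between entries.

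Of the 45 entries, 40 passed the filter of at least 10 normalised reads in at least 2 libraries and were tested. The other 5, RBOHJ, GRXS2, TRXB1, TRXH4 and GSTT2, had between 6 and 36 recovered reads in all 8 libraries together. None of the 40 passed the threshold (adjusted p under 0.05, limma on log2 of value + 1, Benjamini-Hochberg over 4801 entries) across the treatments, in any pair of treatments, or against root zinc, arsenic or lead. The share of all entries past that threshold with limma was 0.0208% in TC20 against TC15 and 0% in the other 6 comparisons. The edgeR and DESeq2 tests on recovered reads also called none of the 40. With edgeR the share of all entries called was 0.0417% for root lead and 0% elsewhere. With DESeq2 it was 0.729% across treatments, 0.292% in TC20 against TC10, 0.312% in TC15 against TC10, 0.229% in TC20 against TC15, 0.125% for zinc, 0.125% for arsenic and 0.875% for lead. The lowest adjusted p of any of the 40 was 0.594 with limma on all 8 libraries, for the lead slope of GSTUP, and 0.0779 with DESeq2, for GRXS9 in TC15 against TC10. The values below therefore describe levels, their spread between plants and the bounds that the intervals give. Words such as higher or lower refer to the libraries measured.

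**Figure D1:**
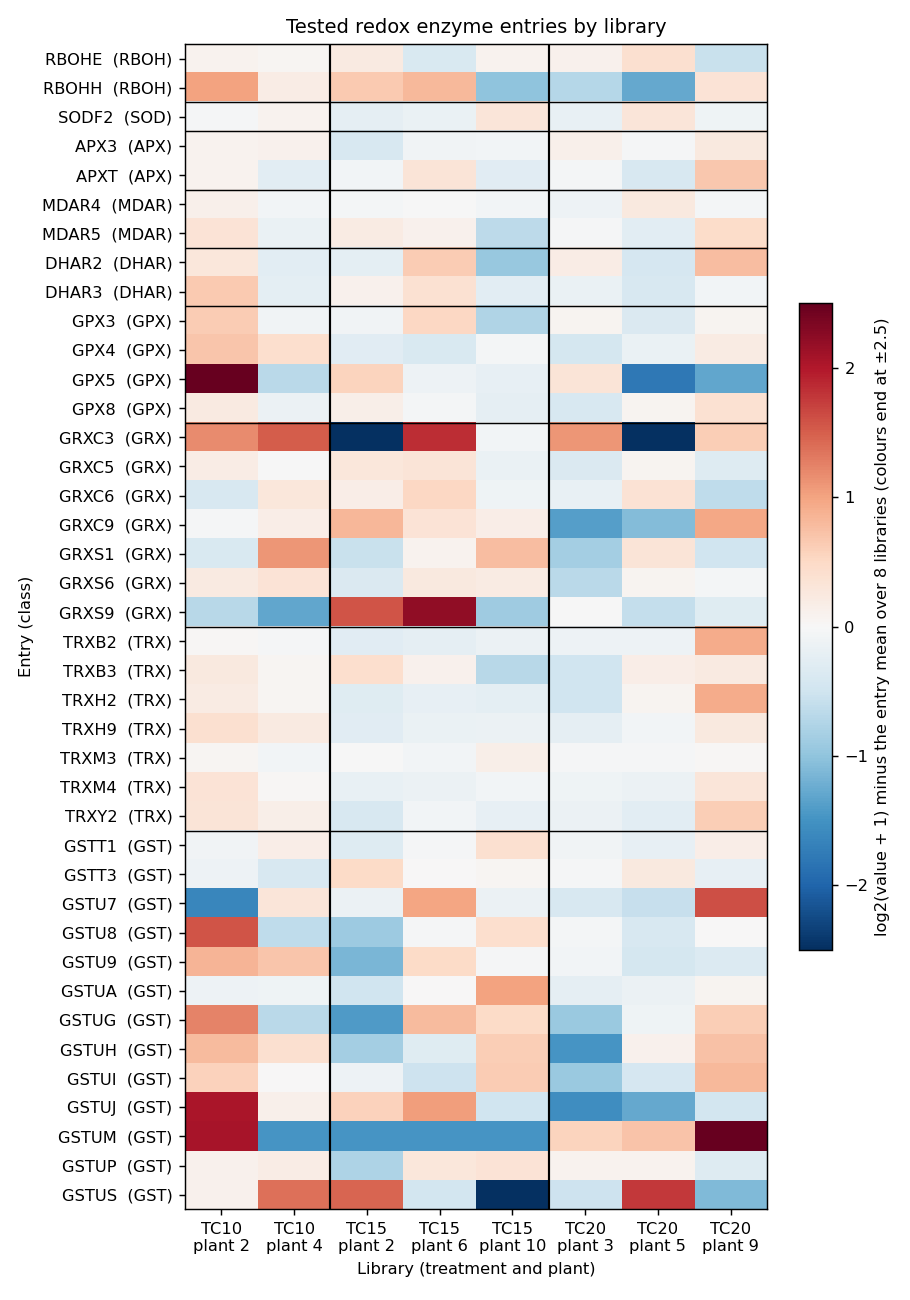
Level of the 40 tested entries in each of the 8 libraries, as log2(value + 1) minus the mean of the entry over the 8 libraries. Rows are grouped by enzyme class and columns run by treatment and plant. The thioredoxin TRXM3 is near its mean throughout, whereas GPX5, GSTU8 and GSTUJ are high in TC10 plant 2, GRXS9 in TC15 plants 2 and 6, and GSTU7 in TC15 plant 6 and TC20 plant 9.

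Among the NADPH oxidases, RBOHE had 1072 and 1042 normalised reads in the TC10 plants, 1180.1, 779.97 and 1068 in the TC15 plants and 1084, 1333 and 688 in the TC20 plants. Its group means lay between 1009 and 1057, while single plants ranged 1.94-fold. RBOHH, which in Arabidopsis acts with RBOHJ in pollen tubes, had 177 and 100.2 in TC10, 139.9, 156 and 43.2 in TC15, and 53.7, 35.8 and 113 in TC20. The TC20 mean of RBOHH (67.5 ± 40.3, SD, n = 3) was below the TC10 mean (139 ± 54.5, n = 2), with overlapping groups and a log2 difference of -1.13 (SE 0.67, limma adjusted p 0.918), which was -0.72 without TC10 plant 2. RBOHJ had 24 reads in all and was not listed, and set to 0, in TC10 plant 4 and TC15 plant 2.

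SODF2, named after a plastid iron superoxide dismutase, had 584 and 642 normalised reads in TC10, 515, 537 and 739 in TC15, and 528, 742 and 559 in TC20. The 3 groups overlapped, and the highest plant was 1.44-fold above the lowest. The 95% interval of its log2 difference was -0.54 to 0.50 for TC20 against TC10.

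The enzymes of ascorbate turnover differed in how far plants varied. APX3, the peroxisomal ascorbate peroxidase, had 1165 and 1169 normalised reads in TC10, 826, 1031 and 1037 in TC15, and 1197, 1069 and 1292 in TC20. Each TC15 plant was below each TC10 and each TC20 plant. The log2 difference of APX3 was 0.30 for TC20 against TC15 (SE 0.15, limma adjusted p 0.790) and -0.28 for TC15 against TC10 (SE 0.16, adjusted p 0.764). Without TC15 plant 2 these differences were 0.19 and -0.17. APXT, the thylakoid form, had 494 to 1033 over the 8 libraries, with its highest value in TC20 plant 9. MDAR4, the peroxisomal membrane enzyme that returns monodehydroascorbate to ascorbate, was among the steadiest entries, with 550 and 483 in TC10, 485, 499.9 and 479.9 in TC15, and 464, 602 and 491 in TC20. For MDAR4, 95% intervals in the 3 pairs lay between -0.46 and 0.42 on the log2 scale. MDAR5, the plastid and mitochondrial form, ranged from 551 in TC15 plant 10 to 1208 in TC20 plant 9.

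DHAR2, the cytosolic dehydroascorbate reductase that spends glutathione to recover ascorbate, had the 15th highest mean of the 5164 entries, a rank that also depends on transcript length. It had 10062 and 6847 normalised reads in TC10, 6999, 12790.2 and 4311 in TC15, and 9369, 6144 and 14182 in TC20. The plant with the lowest value, TC15 plant 10, also had the most zinc of the 8 roots, and the plant with the highest value, TC20 plant 9, had the least. Even so, TC10 plant 4 and TC20 plant 5 were within 1.11-fold of each other for DHAR2 at 637 and 277 ug/g zinc. The slope of DHAR2 was -0.37 per doubling of root zinc (SE 0.20, limma p 0.101, adjusted p 0.918). It was -0.15 without TC15 plant 10 and -0.24 without TC20 plant 9. At such depth counting error would give a coefficient of variation (CV, the SD as a percent of the mean) of 1.08%, and the observed CV over plants was 38.5%. DHAR3, the plastid form, had 225 to 471, with its highest value in TC10 plant 2.

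The 4 glutathione peroxidase-like entries belong to a family whose plant members take electrons from thioredoxin. GPX4 had 579 and 478 normalised reads in TC10, 293, 273 and 342 in TC15, and 262, 316 and 413 in TC20. Both TC10 plants were above all 6 others. GPX4 was the 1 member of the 40 with an unadjusted p under 0.05 across treatments (limma p 0.0204, adjusted p 0.813). That is a share of 2.5%, against 5.14% of all entries tested. By the same rule edgeR gave 4 of the 40 (10%, against 5.64%), GPX4, GPX5, GRXS9 and GSTUJ, and DESeq2 gave these and TRXH9 (12.5%, against 9.25%). GPX5 had 171 and 10.6 in TC10 plants 2 and 4, 26.1, 16.0 and 15.0 in TC15, and 22.3, 4.37 and 6.51 in TC20, so its TC10 mean rested on 1 library. The log2 difference of GPX5 in TC20 against TC10 was -2.19 (SE 1.13, limma adjusted p 0.918), and it was -0.24 without TC10 plant 2. GPX3, which in Arabidopsis relays peroxide to abscisic acid signalling, had 108 to 285, and GPX8, a cytosolic and nuclear form, 85.1 to 148. Both had overlapping groups.

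**Figure D2:**
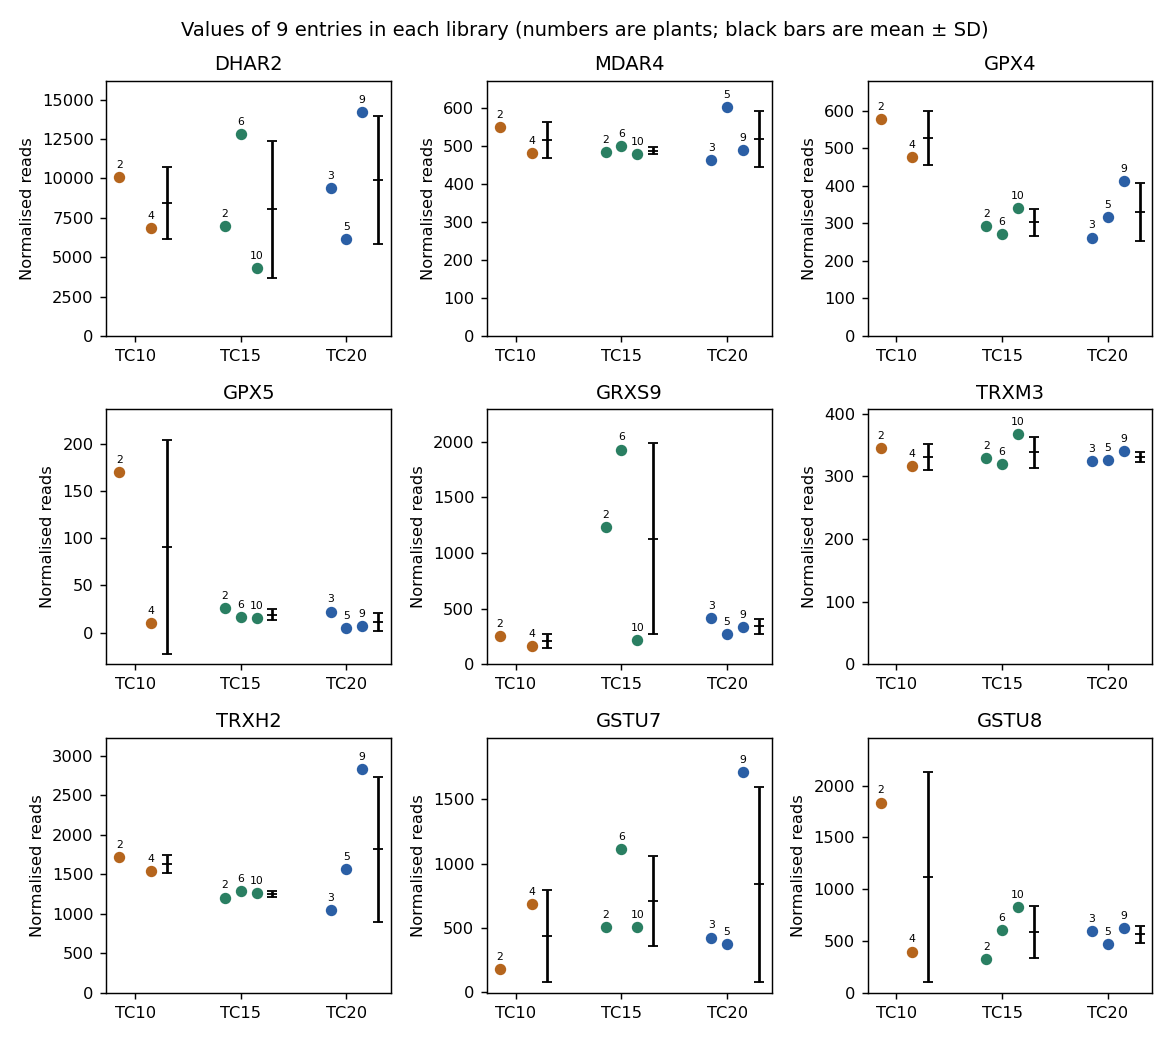
Normalised reads of 9 entries in each library by treatment, with the plant number over each point. Black bars give the group mean ± SD (n = 2 for TC10 and n = 3 for TC15 and TC20). MDAR4 and TRXM3 vary little, GPX4 has both TC10 plants above the other 6, GPX5 and GSTU8 have TC10 plant 2 far above the rest, and DHAR2, TRXH2 and GSTU7 are highest in TC20 plant 9.

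Among the glutaredoxins, GRXS9, of the CC type, had the widest range at a well-covered level. It had 257 and 167 normalised reads in TC10, 1237, 1928 and 222 in TC15, and 413, 274 and 334 in TC20. The lower of TC15 plants 2 and 6 was 2.99-fold above the next library, TC20 plant 3, while TC15 plant 10 lay among the TC10 plants. GRXC9, a CC-type glutaredoxin known in Arabidopsis for its salicylic acid response, had 197 and 226 in TC10, 359, 255 and 224 in TC15, and 77.0, 93.5 and 392 in TC20. The TC20 plants held both its lowest values and its highest. GRXS1, also of the CC type, had 20.0 and 57.8 in TC10, 17.7, 28.3 and 45.9 in TC15, and 14.2, 33.2 and 18.5 in TC20. GRXS6 had 105 and 114 in TC10, 70.0, 106 and 104 in TC15, and 55.7, 93.5 and 86.9 in TC20, so each TC20 plant was below each TC10 plant. GRXC6, another CC-type entry, ranged from 209.5 to 466, and the plastid form GRXC5 from 102 to 165. GRXC3 had 103 reads in all and was not listed, and set to 0, in TC15 plant 2 and TC20 plant 5. GRXS2 had 36 reads and was not listed in TC15 plant 10.

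Among the thioredoxins, TRXM3, a plastid thioredoxin of the m type, was the steadiest of the 45. It had 346 and 316 normalised reads in TC10, 329, 319 and 367 in TC15, and 325, 327 and 341 in TC20. Its CV of 5.02% was no larger than the 5.44% that counting error gives, and it ranked 15 from the lowest among the 4801 tested entries. TRXH9, a cytosolic and membrane-linked h-type thioredoxin, had 960.5 and 845 in TC10, 595, 645 and 653 in TC15, and 623, 688 and 859.9 in TC20. TRXH2, another h-type member, had 1712 and 1545 in TC10, 1206, 1286 and 1262 in TC15, and 1053, 1569 and 2834 in TC20. TRXB2, an NADPH-dependent thioredoxin reductase, had 501 to 623 in 7 libraries and 1154 in TC20 plant 9, the same plant in which TRXH2 was highest. TRXB3, the plastid reductase joined to its own thioredoxin domain, had 71.5 to 157, TRXM4 397 to 574 and TRXY2, a plastid y-type thioredoxin, 119 to 243. TRXB1 had 6 reads and TRXH4 14 reads in the 8 libraries together, and each was not listed in 4 libraries.

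**Figure D3:**
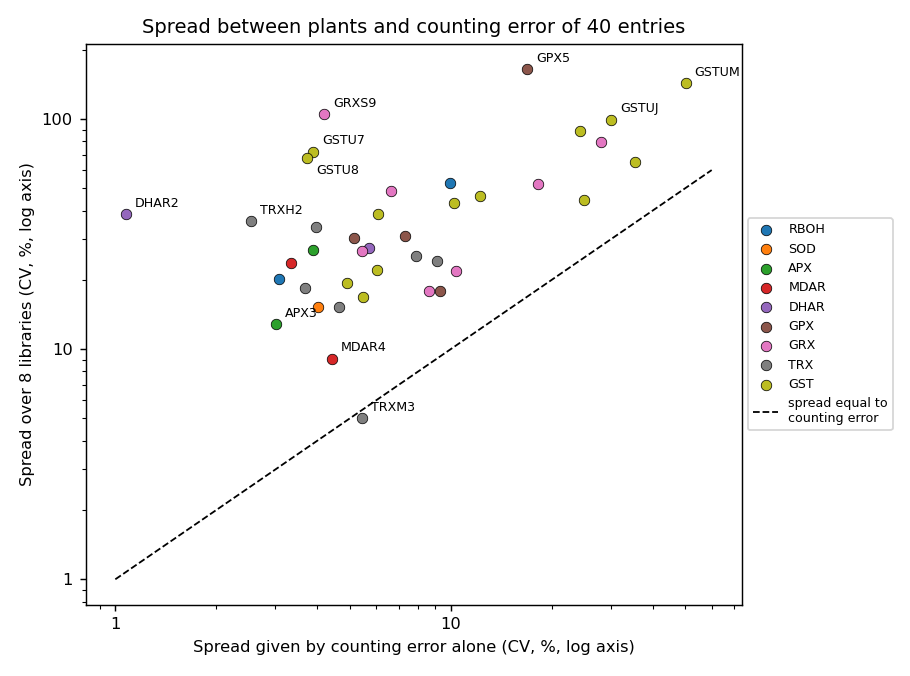
Coefficient of variation over the 8 libraries (vertical) against the one that counting error alone would give (horizontal), both in percent on log axes, 1 point per tested entry and coloured by class. TRXM3 lies just under the dashed line of equal values, and DHAR2, GRXS9, GSTU7, GSTU8 and TRXH2 lie furthest above it.

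The glutathione transferases and the glutaredoxins varied widely between plants. The median CV was 46.4% over the 13 tested transferases and 48.8% over the 7 tested glutaredoxins, against 24.1% over the 7 tested thioredoxins and reductases and 23.3% over all 4801 entries. These medians depend on read depth too, because several transferases had few reads. GSTU8, of the plant-specific tau class, had 1837 normalised reads in TC10 plant 2 and 398 in plant 4. Its values were 328, 607 and 824 in TC15 and 598, 469 and 625 in TC20. GSTU7, of the same class, had 180.1 in the first of those TC10 plants, its lowest library, and 687 in the other. In TC15 it had 505, 1117 and 506, and in TC20 425, 377 and 1717. GSTU7 and GSTU8 thus stood at opposite ends in TC10 plant 2. GSTU9 had 158 and 142 in TC10, 39.2, 123 and 85.6 in TC15, and 84.1, 64.7 and 69.5 in TC20, so both TC10 plants were above all 6 others. GSTUA had 234 and 237 in TC10, 179, 255 and 513 in TC15, and 219, 229 and 268 in TC20, so 1 plant, TC15 plant 10, was 1.91-fold above the next. GSTUP had 287 and 299.6 in TC10, 154, 323 and 336 in TC15, and 283, 283 and 212 in TC20. GSTUH had 102 and 77.1 in TC10, 31.7, 46.7 and 89.1 in TC15, and 20.3, 62.9 and 96.6 in TC20.

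The theta-class transferases, which are peroxisomal in Arabidopsis, were steadier. GSTT1 ranged from 262 to 435 and GSTT3 from 307 to 564, with CVs of 16.8% and 19.5%, while GSTT2 had 10 reads in all. GSTUI, GSTUG, GSTUJ and GSTUS had between 65 and 137 reads over the 8 libraries. Normalised reads ranged from 7.09 to 26.1 for GSTUI, from 1.87 to 17.2 for GSTUG and from 0.882 to 38.5 for GSTUS, with overlapping groups. GSTUJ had 35.3 and 8.67 normalised reads in TC10, 12.1, 17.2 and 5.29 in TC15, and 2.03, 2.62 and 5.43 in TC20. GSTUM had 3, 4 and 14 reads in the TC20 plants and 0 in all 3 TC15 plants. With a floor of 3 counts for the TC15 group as a whole, its pooled level in TC20 was 6.93-fold above that floor. That ratio was 3.31-fold when TC20 plant 9 was left out. Leaving out TC15 plant 10 gave 4.33-fold, and leaving out TC15 plant 2 gave 4.47-fold. In TC10, 11 reads of GSTUM were all in plant 2. GSTUM passed the filter only through that plant and TC20 plant 9, at 10.5 and 15.2 normalised reads. The authors' reads carry no molecular identifiers, so the floor of 3 counts covers counting error of the TC15 reads only. The TC20 level carries its own error, so the ratio is not a lower bound.

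In TC20 against TC10, the question was how the largest compost dose compared with the smallest. With limma, 2 of the 40 had an unadjusted p under 0.05, both lower in TC20, against 2.44% of all entries lower by that rule and 4.29% in either direction. GPX4 averaged 330 ± 76.1 normalised reads in TC20 and 529 ± 71.8 in TC10 (SD, n = 3 and n = 2), a log2 difference of -0.69 (SE 0.23, limma adjusted p 0.918). GSTUJ had a log2 difference of -2.18 (SE 0.85, adjusted p 0.918), on the few reads given above, and it was -1.23 without TC10 plant 2. GSTU9 averaged 72.8 ± 10.1 in TC20 and 149.9 ± 11.7 in TC10 (log2 -1.04, SE 0.45, limma p 0.0517). Groups did not overlap for 6 entries that were lower in TC20 (15% of the 40, against 9.23% of all entries) and for 1, GRXS9, that was higher (2.5%, against 9.31%). The 6 were GPX4, GRXC3, GRXS6, GSTU9, GSTUJ and GSTUP. With edgeR 4 of the 40 had an unadjusted p under 0.05 (against 4.64%) and with DESeq2 4 (against 6.69%), in both GPX4, GPX5, GSTU9 and GSTUJ. The limma count was 0 without TC10 plant 2 (against 1.98% of all entries) and 0 without TC20 plant 3 (against 4.04%). It was 5 without TC10 plant 4 (against 11.3%), 1 without TC20 plant 5 (against 4.46%) and 4 without TC20 plant 9 (against 5.48%).

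In TC15 against TC10, limma gave 3 of the 40 with an unadjusted p under 0.05 (7.5%, against 6.62% of all entries). GPX4 averaged 303 ± 35.8 in TC15 and 529 ± 71.8 in TC10, a log2 difference of -0.80 (SE 0.23, limma adjusted p 0.731). TRXH9 averaged 631 ± 31.2 in TC15 and 903 ± 81.8 in TC10 (log2 -0.51, SE 0.18, adjusted p 0.731). GRXS9 averaged 1129 ± 858 in TC15 and 212 ± 64.1 in TC10 (log2 1.96, SE 0.80, adjusted p 0.731), with overlapping groups. Without TC15 plant 10 the GRXS9 difference was 2.89 (limma adjusted p 0.131), and without TC15 plant 6 it was 1.34. Groups did not overlap for 8 entries that were lower in TC15 (20% of the 40, against 12.3%) and for 1, GSTT3, that was higher (2.5%, against 12.4%). Of the 8, 5 were thioredoxins or a reductase: TRXH9, TRXM4, TRXY2, TRXH2 and TRXB2. The other 3 were GPX4, GSTU9 and APX3. The count of 3 was 0 without TC10 plant 2 (against 2.67% of all entries), 5 without TC10 plant 4 (against 12%) and 1 without TC15 plant 2 (against 4.71%). With all libraries, edgeR gave 3 (against 6.98%) and DESeq2 4 (against 9.08%), the same 3 and GPX5. For GSTT3 the TC15 plants had 564, 407 and 421 normalised reads, against 369 and 307 in TC10.

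In TC20 against TC15, limma gave none of the 40 with an unadjusted p under 0.05, against 5.83% of all entries. Both edgeR (against 6.44%) and DESeq2 (against 8.23%) gave 2, GRXS9 and GSTUM. Those with the smallest limma p were GSTUM (log2 2.73, SE 1.23, limma p 0.0584), APX3 (log2 0.30) and GSTUJ (log2 -1.47). GSTUM was tested only because TC10 plant 2 and TC20 plant 9 met the filter, and it had 0 reads in the TC15 plants. Its p and its place in the counts of this pair are therefore no support for a difference. GSTUM, APX3 and TRXB2 were higher in every TC20 plant than in every TC15 plant (7.5% of the 40, against 6.98%), and none was lower in every TC20 plant, against 5.89%. TRXB2 had 556, 559 and 1154 in TC20, against 501, 521 and 548 in TC15. Its log2 difference was 0.44, and 0.09 without TC20 plant 9. The 3 pairs share libraries, so their values are not separate evidence.

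**Figure D4:**
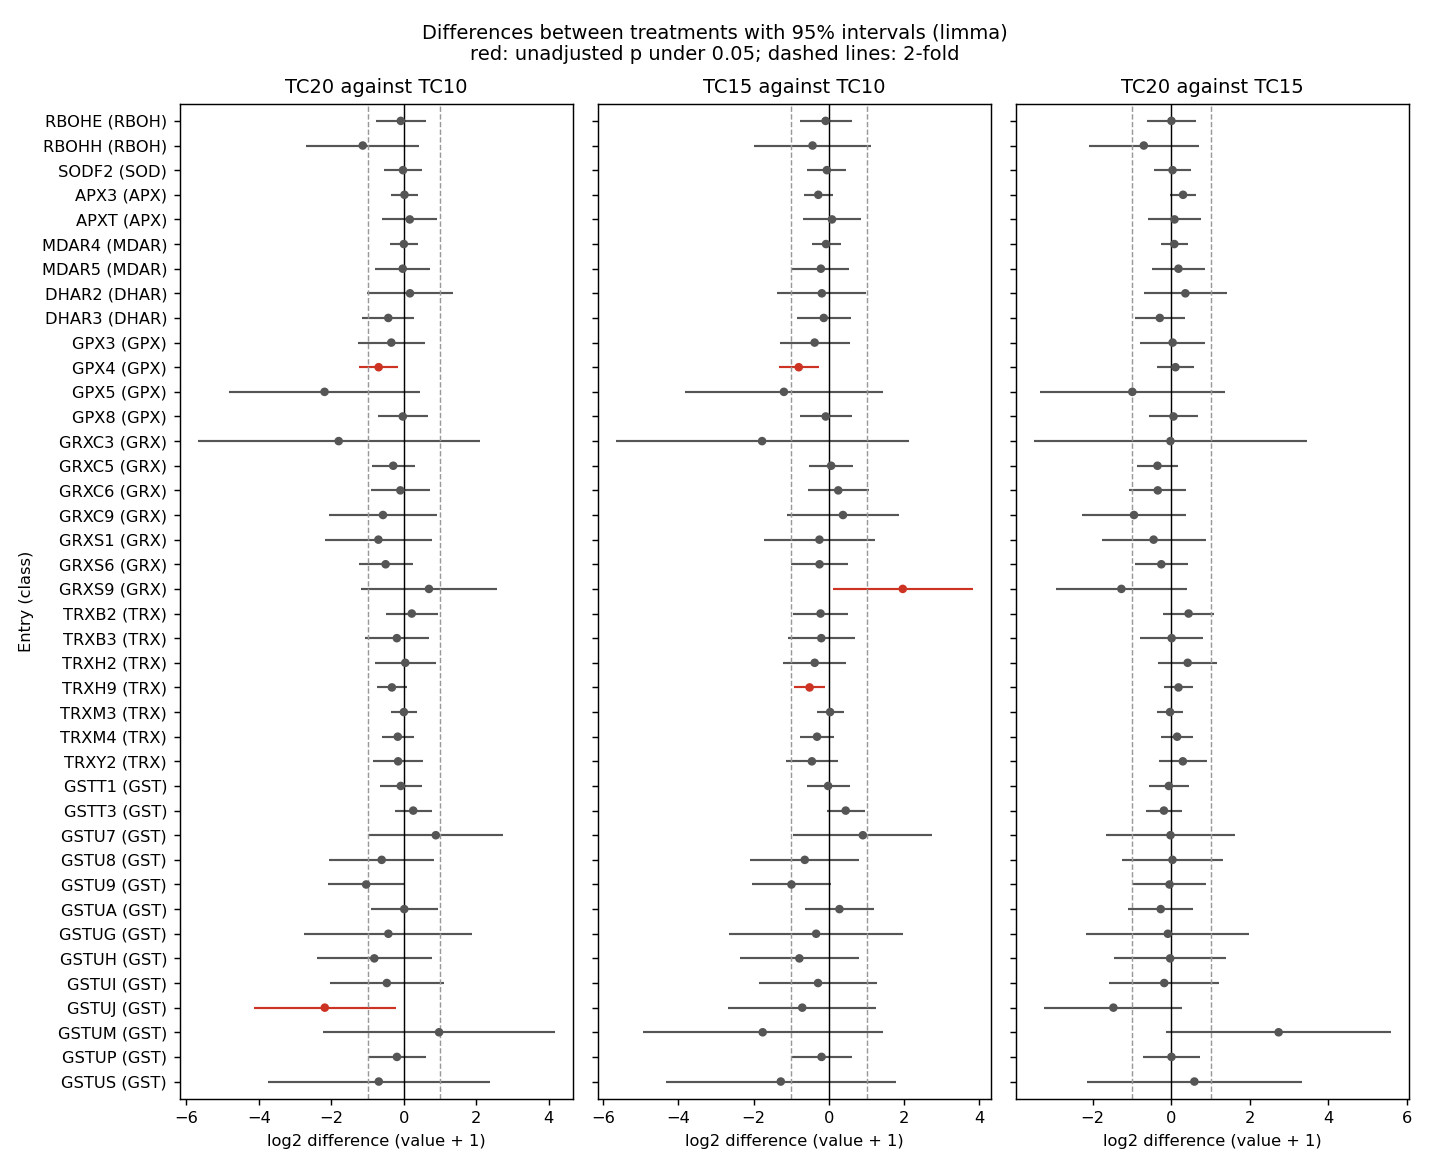
Log2 differences of the 40 tested entries in the 3 pairs of treatments, with 95% intervals from limma, on the log2(value + 1) scale. Red marks an unadjusted p under 0.05, and dashed lines mark 2-fold. Entries with many reads and little spread, such as MDAR4, TRXM3 and APX3, have narrow intervals, while those of GRXC3, GPX5, GSTUG, GSTUM and GSTUS span more than 4 log2 units in each pair.

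The 95% intervals bound how large differences could be. In TC20 against TC10 the interval lay within a 2-fold change either way for 18 of the 40, in TC15 against TC10 for 16 and in TC20 against TC15 for 21, against 54.5%, 52.8% and 59.6% of all entries tested. The thioredoxins had such intervals in 6 of 7 entries in TC20 against TC10, the transferases in 3 of 13. The median log2 difference of the 40 was -0.18 in TC20 against TC10 (28 of 40 negative), -0.24 in TC15 against TC10 (31 negative) and -0.01 in TC20 against TC15 (20 negative). Of all 4801 entries, 2389, 2421 and 2321 were negative in these pairs, with medians between -0.005 and 0.012. Without TC10 plant 2, which leaves TC10 plant 4 as the only TC10 library, the medians of the 40 against TC10 were -0.08 (23 negative) and -0.04 (23 negative). Without TC10 plant 4 they were -0.26 and -0.37. Without TC20 plant 3 the median of TC20 against TC10 was -0.08, and it was -0.27 without TC20 plant 5 or plant 9.

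Single plants differed across enzyme classes. TC10 plant 2 held the highest value of 12 of the 40 entries (30%, against 18.0% of all entries), among them 3 of 4 glutathione peroxidase-like entries, 5 of 13 transferases and DHAR3. TC20 plant 9 also held 12 maxima (30%, against 21.1%), including both ascorbate peroxidases, DHAR2, MDAR5, TRXH2 and TRXB2. TC15 plant 2, with the least arsenic and lead, held the lowest value of 13 entries (32.5%, against 16.0%), 6 of them transferases and 4 thioredoxins or a reductase. TC20 plant 3 held 11 minima (27.5%, against 6.96%), 4 of them glutaredoxins, and no maximum. The summed root markers, mostly PHO1, were 1631, 2452, 1480.5 and 3421 in these 4 plants, and CB4B was 120, 23.9, 58.8 and 24.3. The part of cell make-up in these values was not tested.

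Root metals vary within and between the treatments, and slopes were fitted per doubling of each metal over the 8 plants. Against root arsenic, 7 of the 40 had an unadjusted p under 0.05 with limma (17.5%, against 5.1% of all entries), all 7 with positive slopes (against 2.75%), and edgeR (against 5%) and DESeq2 (against 6.37%) gave the same 7. They were the transferases GSTUP, GSTUH, GSTUA, GSTT1 and GSTU9 and the glutaredoxins GRXS6 and GRXS1. None passed after adjustment (lowest limma adjusted p 0.938, DESeq2 0.470). The slope of GSTUP was 0.37 per doubling of arsenic (SE 0.12, limma p 0.0130), that of GSTUH 0.76 (SE 0.26, p 0.0173) and that of GSTUA 0.41 (SE 0.14, p 0.0195). GSTT1 had a slope of 0.24 (SE 0.09, p 0.0308), GSTU9 0.56 (SE 0.22, p 0.0343), GRXS6 0.35 (SE 0.14, p 0.0326) and GRXS1 0.64 (SE 0.26, p 0.0349).

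Some of the 7 arsenic slopes leaned on the plant with the least arsenic, TC15 plant 2, at 36 ug/g against 65 to 216 ug/g in the others. GSTUP, GSTUA, GSTT1 and GSTU9 each had their lowest value there. Without that plant, 3 of the 40 (7.5%) had an unadjusted p under 0.05 (GSTUH, GRXS6 and GRXS1), against 2.02% of all entries. The slopes of GSTUP and GSTU9 were then smaller, 0.17 and 0.30, and those of GRXS6 and GRXS1 larger, 0.52 and 1.05. GSTUA had its highest value in TC15 plant 10, which had the most arsenic of the 8, and without that plant its slope was 0.20. With treatment as a covariate, 3 of the 40 had an unadjusted p under 0.05, a share of 7.5%, near the 7.04% of all entries. They were GSTUA (slope 0.51, limma p 0.00575), GSTUP (0.39, p 0.0326) and GSTT1 (0.26, p 0.0460). Within treatments, arsenic ranged from 36 to 216 ug/g in TC15, 129 to 171 in TC10 and 65 to 107 in TC20. TC15 plants 2 and 10 therefore weigh most in that fit too. Among the 13 tested transferases the median arsenic slope was 0.36 (10 of 13 positive), against 0.001 over all entries (50.1% positive). It was 0.27 without TC15 plant 2, with 10 of 13 positive. Root cell markers leaned the same way: all 4 tested of the 7 listed had positive arsenic slopes, with a median of 0.30. MYB36 had a slope of 0.42 per doubling of arsenic (SE 0.13, limma p 0.0130, adjusted p 0.938) and 0.32 per doubling of lead (limma p 0.0497). The other arsenic slopes were 0.46 for PHO1 (limma p 0.223), 0.18 for PLET2 (p 0.498) and 0.12 for SHR (p 0.741). MYB36 had its lowest value, 381, in TC15 plant 2. Without that plant none of the 4 had an unadjusted p under 0.05 on arsenic or lead. All 4 arsenic slopes were then still positive, with a median of 0.40. For lead, 2 of the 4 root markers had positive slopes and 2 had negative slopes. The green marker CB4B had 0.20 for arsenic (limma p 0.666). Summed root markers, mostly PHO1, were 1631 to 3705 in TC10, 1480.5 to 4196 in TC15 and 2452 to 5782 in TC20. Their part in the arsenic slopes was not tested.

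**Figure D5:**
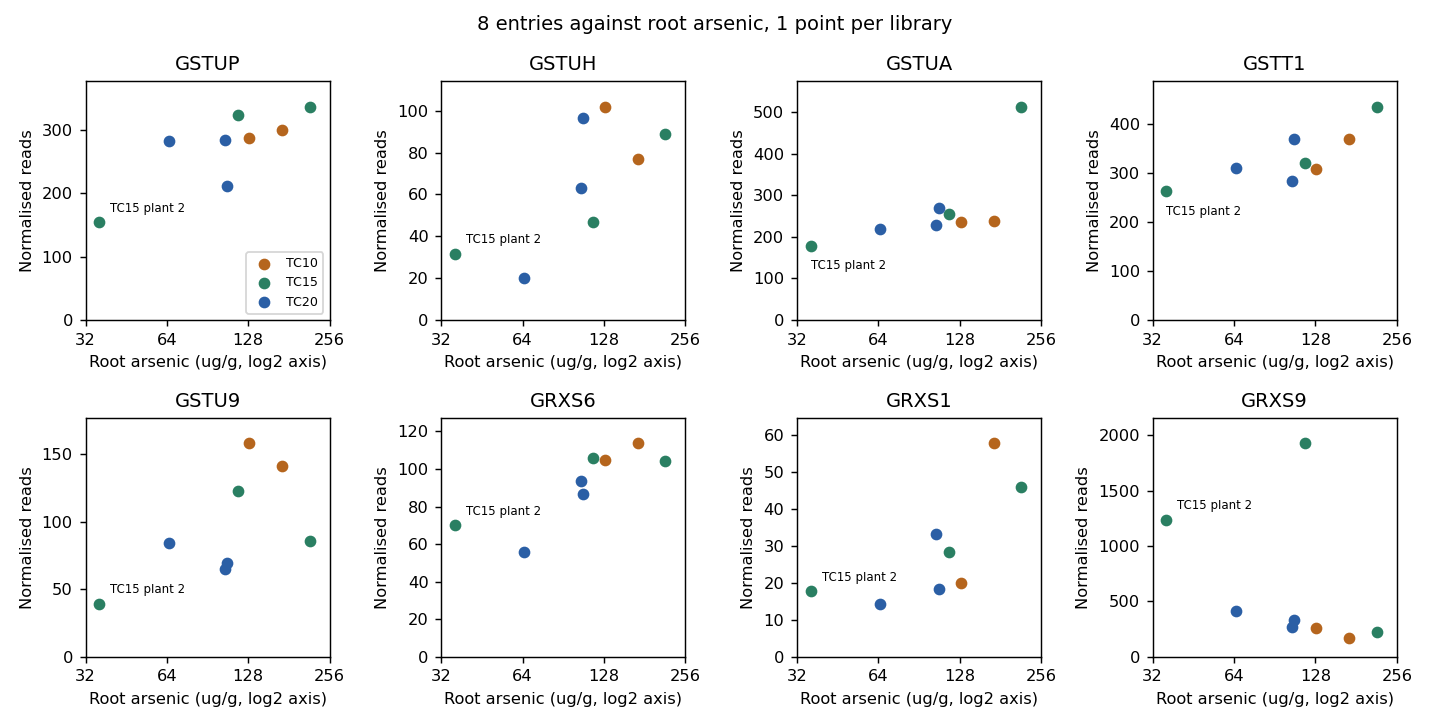
Normalised reads of the 7 entries with an unadjusted p under 0.05 on the arsenic slope, and of GRXS9, against root arsenic in ug/g on a log2 axis, 1 point per library, coloured by treatment. TC15 plant 2, at 36 ug/g, holds the lowest value of GSTUP, GSTUA, GSTT1 and GSTU9 and the second highest of GRXS9.

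Against root lead, 4 of the 40 had an unadjusted p under 0.05 with limma (10%, against 6.87%): GSTUP (slope 0.35, SE 0.10, adjusted p 0.594), GSTU9 (0.54, SE 0.20, adjusted p 0.668), GSTUH (0.62, SE 0.26, adjusted p 0.699) and, with a negative slope, GRXS9 (-0.95, SE 0.36, adjusted p 0.690). With edgeR 4 had such a p (against 6.94%) and with DESeq2 5 (against 9%), in both cases with GSTU8 among them. TC15 plant 2 had the least lead too, 10 ug/g against 31 to 70 ug/g. Without it 1 of the 40, GSTUH, had an unadjusted p under 0.05 (slope 1.34), against 5.29% of all entries, and the lead slopes of GSTUP and GRXS9 were 0.14 and -1.52. With treatment as a covariate the count was 2 (5%, against 4.73%). GSTUP, GSTU9 and GSTUH were also among those with such a p for arsenic. The least of both metals was in TC15 plant 2 (36 ug/g arsenic, 10 ug/g lead) and then TC20 plant 3 (65 and 31 ug/g). The arsenic and lead slopes are therefore not separate evidence.

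Against root zinc, limma gave 1 of the 40 an unadjusted p under 0.05 (2.5%, against 4.25%), GRXS1 with a slope of 0.56 per doubling (SE 0.24, adjusted p 0.918), and edgeR (against 5.08%) and DESeq2 (against 6.29%) gave the same 1. GRXS1 had its 3 highest values in the plants with 637, 1075 and 277 ug/g zinc. The 4 tested root markers also had positive zinc slopes (median 0.12), with 0.44 for PLET2, a root stem cell regulator (limma p 0.0432). Slopes of the others were 0.18 for SHR (limma p 0.594), 0.06 for MYB36 (p 0.728) and 0.02 for PHO1 (p 0.952). The part of these markers was not tested. MDAR5 had a slope of -0.25 (SE 0.13, limma p 0.0816), which was -0.08 without TC15 plant 10. With treatment as a covariate, 6 of the 40 had an unadjusted p under 0.05 (15%, against 12.3% of all entries). They were MDAR5 (slope -0.70, limma p 0.00361), RBOHH (-1.41, p 0.00526), GRXS9 (-1.56, p 0.0136), GSTUA (0.75, p 0.0181), GSTUP (0.64, p 0.0249) and SODF2 (0.40, p 0.0315), and none passed after adjustment (lowest adjusted p 0.207). For RBOHH the slope without the covariate was 0.04, and for GRXS9 -0.14. Within TC15, RBOHH had 139.9, 156 and 43.2 normalised reads at 373, 565 and 1075 ug/g zinc.

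Other enzymes of the same pathways were taken from lists of Arabidopsis names. Of 21 tested class III peroxidases, secreted enzymes that use peroxide in the wall, 3 had an unadjusted p under 0.05 across treatments, against 5.14% of all entries, and none passed (lowest limma adjusted p 0.813). They were PER25, PER55 and PER46, the last named here after its values were seen. PER25 had 398 and 530 normalised reads in TC10, 69.0, 61.4 and 192 in TC15, and 138, 69.1 and 249.7 in TC20. PER55 had 607 and 687 in TC10, 245, 502 and 218 in TC15, and 327, 267.5 and 244 in TC20. Both TC10 plants were above all 6 others for PER25 and PER55. The 2 tested peroxiredoxins, BAS1A and PRX2E of the plastid, had group means of 422 to 464 and 398 to 442. Both had negative slopes on arsenic and lead. PRX2E had -0.33 per doubling of arsenic (limma p 0.0162, adjusted p 0.938) and -0.26 per doubling of lead (limma p 0.0440, adjusted p 0.699). For BAS1A the slopes were -0.17 (limma p 0.183) and -0.15 (limma p 0.195). PRX2E was highest, at 586, in TC15 plant 2, which had the least of both metals. Without that plant neither had an unadjusted p under 0.05 on either metal, with median slopes of -0.28 and -0.32. With all 8 libraries, 2 of the 21 class III peroxidases had such a p on arsenic (against 5.1% of all entries). On lead, 3 of the 21 and 1 of 3 entries of glutathione and ascorbate synthesis did (against 6.87%). The list of glutathione and ascorbate synthesis had 3 tested entries, with none under 0.05 across treatments. Among them GALDH, an enzyme of ascorbate synthesis, had group means of 86.8 in TC10, 64.7 in TC15 and 88.4 in TC20. The NADPH source ICDHP, an NADP isocitrate dehydrogenase, had 233 to 284. MSRA5, a methionine sulfoxide reductase, had group means of 224, 277 and 335 in TC10, TC15 and TC20. Of 6 chaperones, donors and regulators, 1 had an unadjusted p under 0.05 across treatments (against 5.14% of all entries), the mitochondrial alternative oxidase AOX1A (limma p 0.0449, adjusted p 0.813). AOX1A had 2102 normalised reads in TC10 plant 2, against 130 to 333 in the other 7 libraries. CDSP, a plastid thioredoxin-like protein, had 124 and 162 normalised reads in TC10, 320, 311 and 287 in TC15, and 235, 318 and 72.7 in TC20.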

How the data were processed

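Root RNA of 9 plants was sequenced from total RNA libraries that keep the strand, per the labels' protocols. Per the submitters' processing notes, the tools were FastQC, Trim Galore, kallisto and DESeq2, with versions, transcript reference and naming step not given in the sources used. The deposited signal values, 1 per entry and library, are reads scaled by the authors with a size factor. Division by the value of 1 read gave whole reads for 100% of values within 0.001 of a read. Entries that a file does not list were set to 0. Without the file of TC10 plant 5, 2, 3 and 3 libraries remained. The design text names a count test, but the deposited values are normalised, so limma 3.58.1 (R 4.3.3, empirical Bayes with trend) on log2(value + 1) was the main test. Entries were tested if 2 or more libraries had a value of 10 or more, and p-values were adjusted over all 4801 tested. All groups shared 1 estimate of the spread. edgeR 4.0.16 (quasi-likelihood) and DESeq2 1.42.0 were run on recovered reads, and the fits were tested on simulated data. The simulation held large changes and the same spread for all entries, and covered TC20 against TC15 and the arsenic slope only. It therefore does not show how the fits perform for comparisons with TC10 or for entries with a wide spread. Fold changes on the log2(value + 1) scale understate the change of low entries. The members and lists were chosen with earlier results of these data known. Named members were those with the 6 smallest p per comparison, those whose groups do not overlap, the most read of each class, those with the widest range, and those listed at 0. Python 3.11.15 with scipy 1.17.1 gave the summaries.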

Additional observations from a re-analysis of the deposited data

How the results depend on the processing

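None of the 40 tested entries passed the threshold under any setting run, in any of the 7 comparisons. No paired analysis was possible because any 2 treatments share at most 1 plant number. Counts with an unadjusted p under 0.05 were small and moved, and so did the share of all entries. Across treatments that share was 5.14% with limma, 5.64% with edgeR and 9.25% with DESeq2. Shares for the pairs are given above. With treatment as a covariate it went from 4.25% to 12.3% for zinc, 5.1% to 7.04% for arsenic and 6.87% to 4.73% for lead. Without single libraries it was 97 to 381 of 4801 entries for arsenic, 248 to 524 for lead and 104 to 281 for zinc. Across treatments the 1 of limma became 2 without a filter, 4 with edgeR and 5 with DESeq2, and 0 to 5 when single libraries were left out. In TC20 against TC10 the 2 became 4 with edgeR and 4 with DESeq2, and 0 to 5 without single libraries. In TC15 against TC10 the 3 became 0 to 5 without single libraries, and in TC20 against TC15 the 0 became 1 without a filter, 2 with edgeR, 2 with DESeq2 and 0 to 2 without single libraries. For zinc the 1 became 2 without a filter, 3 with zinc not on a log scale, 6 with treatment as a covariate and 0 to 3 without single libraries. For arsenic the 7 became 3 with treatment as a covariate and 3 to 8 without single libraries, and for lead the 4 became 2 with treatment as a covariate and 1 to 6 without single libraries. The zinc slope of GSTUA was -0.016 without TC15 plant 10 and 0.46 without TC20 plant 9, against 0.29 in all 8. The direction checks covered only the members with the 6 smallest p in each pair and on each metal, and left out the fits with metals not on a log scale. Within that set the other 515 checks kept their direction, which choosing by small p favours. Members outside it were not checked in this way. Of these, RBOHH on zinc changed sign with treatment as a covariate, as given above. Where a TC10 library is left out, the lone one is assumed to vary like the other groups. The causes of these moves were not tested.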
